A study of Mus musculus with 6 samples.

Results

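The miR-465, miR-743, miR-880 and miR-881 cluster is a group of miRNA hairpins on the mouse X chromosome. Of the 1039 mature miRNAs in the table of liver miRNA levels, 6 were taken here as its members, namely mmu-miR-465c-3p, mmu-miR-465c-5p, mmu-miR-743b-3p, mmu-miR-880-3p, mmu-miR-881-3p and mmu-miR-470-5p. They were found by their exact names and had been chosen by their place in the cluster and by their low RPM in these same libraries, with results of the comparison below known. Their low level is therefore a description and not a finding. All 6 had a single entry in the table.

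Small RNA was sequenced from the liver of wild type ICR mice, an outbred stock, at 30 weeks of age. All mice received a high fat diet (HFD), and after 12 weeks the J group was given JTXK granule, a Chinese herbal formula, by gavage for 8 weeks, while the M group (the HFD-induced diabetic model) received sterile water. There were 3 mice in each group and 1 library per mouse. Mice on standard diet were not analysed here, and the sources used here do not give the sex of the mice. The values are RPM, the reads of a miRNA scaled to a fixed total of miRNA reads per library. Because every value was a whole multiple of the RPM of 1 read, the reads themselves could be recovered.

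MicroRNAs of this cluster lie between Slitrk2 and Fmr1 and are known from rodents, where they have changed quickly in sequence and copy number. They are expressed mainly in testis, in germ cells and Sertoli cells, and not as typical liver miRNAs. Like other miRNAs they pair with target mRNAs mainly through the seed, bases 2 to 8 from the 5′ end, so a change in the seed changes the targets while a change elsewhere does so much less.

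The 6 mature sequences, all matched in RefSeq (GRCm38.p6), are shown because closely related copies decide which reads can be assigned to which miRNA. The seed is in capitals and sequences run 5′ to 3′.
mmu-miR-743b-3p: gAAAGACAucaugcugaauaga
mmu-miR-880-3p: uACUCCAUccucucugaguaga
mmu-miR-881-3p: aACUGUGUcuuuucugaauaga
mmu-miR-470-5p: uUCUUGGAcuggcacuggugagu
mmu-miR-465c-5p: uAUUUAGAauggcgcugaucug
mmu-miR-465c-3p: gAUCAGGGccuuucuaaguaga

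The 6 members have 6 different seeds. mmu-miR-743b-3p shares its seed with 1 other mouse miRNA, mmu-miR-743a-3p, which is in the table. mmu-miR-465c-5p shares its seed with mmu-miR-465a-5p, mmu-miR-465b-5p and mmu-miR-465d-5p. mmu-miR-880-3p, mmu-miR-881-3p and mmu-miR-470-5p share their seeds with 0 other mouse miRNAs of the RefSeq table.

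mmu-miR-465c-3p is identical to mmu-miR-465a-3p and mmu-miR-465b-3p, and its 22 bases occur in 5 hairpins (Mir465, Mir465b-1, Mir465b-2, Mir465c-1 and Mir465c-2). The table has mmu-miR-465c-3p as its only 3p entry of miR-465, so its reads stand for all 5 hairpins, which cannot be told apart. The 5p arm of miR-465c occurs in 2 hairpins, Mir465c-1 and Mir465c-2. Counted from 1 at the 5′ end, it differs from mmu-miR-465b-5p by C13U alone and from mmu-miR-465a-5p by G14A and C20G over the 22 bases compared. mmu-miR-743b-3p differs from mmu-miR-743a-3p by U9C, U12A and A18G. Reads with a sequencing error could pass between these close copies, and the sources used here give no rule for such reads.
mmu-miR-465b-5p: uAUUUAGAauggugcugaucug
mmu-miR-465a-5p: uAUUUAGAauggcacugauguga
mmu-miR-743a-3p: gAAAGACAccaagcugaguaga

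Although their seeds differ, the members from 3p arms are alike at the other end. All 4 end in UAGA, and all 4 end in the longer form CUNANUAGA, where N is any base. Of 1679 mature mouse miRNAs with a sequence, 14 end in UAGA (0.834%) and 7 in CUNANUAGA (0.417%), read on the mature strand only and with the short form inside the long form. Of the 20 cluster miRNAs from 3p arms, 9 end in UAGA and 7 in CUNANUAGA. mmu-miR-880-3p and mmu-miR-881-3p, whose hairpins are neighbours but for Mir878, have the same base at 15 of 22 positions, while mmu-miR-743b-3p matches mmu-miR-881-3p at 12 and mmu-miR-880-3p at 10. The motif was noticed in these sequences, so it describes them and was not tested.

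In the RefSeq annotation of GRCm38.p6 the dense part of the cluster spans chrX:66776757-66839125, with 19 hairpins in 62.4 kb. All 19 lie on the minus strand, and 0 of them overlap another annotated gene of GENCODE, so they are intergenic. Mir743b lies at chrX:66777256-66777332, Mir880 at chrX:66800530-66800607, Mir881 at chrX:66801944-66802021 and Mir470 at chrX:66813951-66814025. Mir465c-1 lies at chrX:66825955-66826035 and Mir465c-2 at chrX:66832517-66832597. The submitters' processing notes name mm9, another build, so these positions are the annotation's and not the table's, which holds none.

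The libraries held 2626353 to 4314134 miRNA reads, and 1 read was worth 0.232 to 0.381 RPM. The hepatocyte miRNA mmu-miR-122-5p was the most abundant mouse miRNA, with 208683 to 262490 RPM per library. M group replicate 1 had the highest value of the 6 libraries for 184 of the 548 miRNAs tested, more often than any other library, and J group replicate 2 for 101. The labels do not say whether libraries were prepared together, and p-values measure the spread between these 3 mice per group. In whole liver, fewer cells of a type and less RNA per cell cannot be told apart.

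All 6 members were rare, at rank 301 to 401 of 762 mouse miRNAs by mean RPM, and all had reads in all 6 libraries. mmu-miR-743b-3p had the highest mean (7.70 ± 4.88 RPM, SD, n = 6), followed by mmu-miR-470-5p (6.31 ± 4.53), mmu-miR-881-3p (5.91 ± 5.36) and mmu-miR-880-3p (5.49 ± 3.32). These 4 were not separated by their spread. mmu-miR-743b-3p exceeded mmu-miR-470-5p in 5 of 6 libraries, mmu-miR-470-5p exceeded mmu-miR-881-3p in 3, and mmu-miR-881-3p exceeded mmu-miR-880-3p in 2. The order of mmu-miR-470-5p and mmu-miR-881-3p turned by group, with mmu-miR-881-3p above in all 3 J group libraries and below in all 3 M group libraries. Next in order, mmu-miR-880-3p exceeded mmu-miR-465c-5p (2.81 ± 2.24 RPM, SD, n = 6) in 6 of 6 libraries, by 1.07 ± 0.63 (SD) on the log2 scale. This did not hold for mmu-miR-881-3p, which had 10 reads in M group replicate 3, as many as mmu-miR-465c-5p. mmu-miR-465c-3p was at 2.38 ± 1.43 RPM (SD, n = 6), below mmu-miR-465c-5p in 3 libraries, equal to it in reads in 1 and above it in 2. The mature forms are 22 or 23 bases long, so length hardly enters these levels, while small RNA ligation is known to favour some ends over others.

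**Figure D1:**
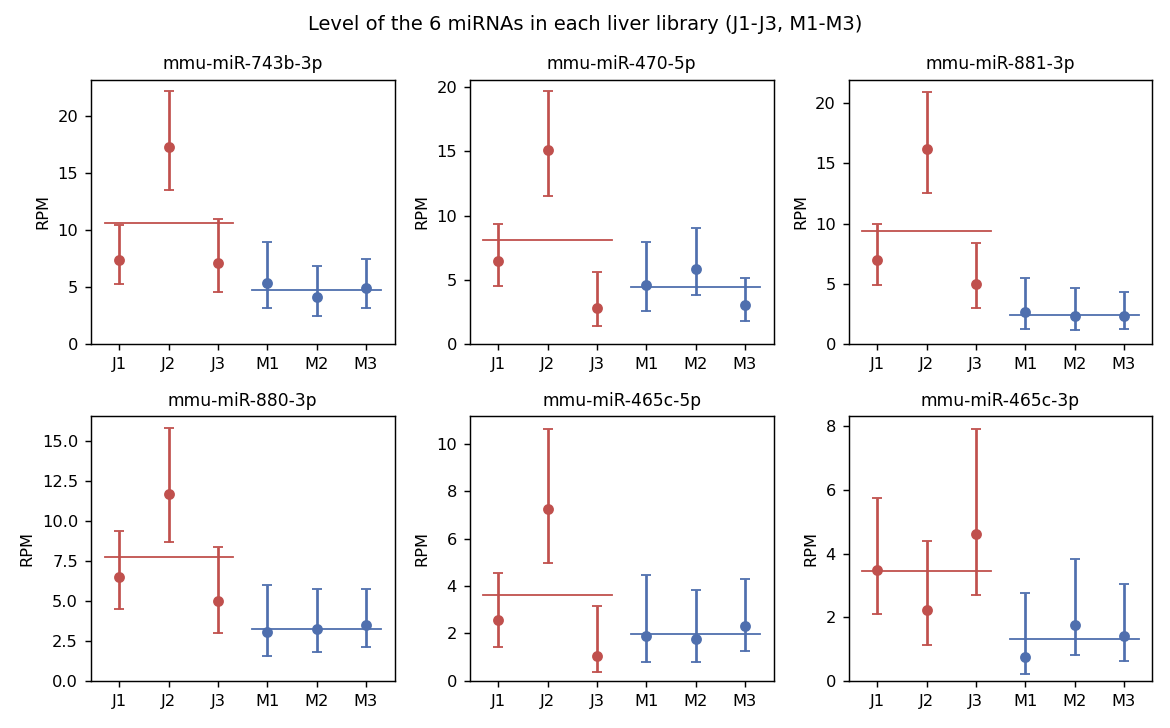
RPM of the 6 miRNAs in the libraries J1 to J3 and M1 to M3 of the J group and M group. Points are libraries, bars are 95% Wilson intervals (counting error only), and lines are group means. J2 is highest in 5 of the 6 panels, and mmu-miR-465c-3p is the exception.

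Summed over the 6 members, the M group libraries had 48, 65 and 75 reads, and the J group libraries had 144, 250 and 72. In RPM the sums were 18.3, 19.1 and 17.5 in M group replicates 1 to 3 and 33.4, 69.8 and 25.7 in J group replicates 1 to 3. The M group sums lay closer together than their 95% Wilson intervals are wide, and every J group sum lay above them. The group means were 42.9 ± 23.6 and 18.3 ± 0.799 RPM (SD, n = 3), a ratio of 2.35, which was 1.62 without J group replicate 2. The 95% Wilson interval of J group replicate 3 (20.4 to 32.3 RPM) overlapped that of M group replicate 2 (15.0 to 24.3 RPM), so the smallest gap between the groups was within counting error. These intervals hold only the error of counting, because reads that are PCR duplicates were not separated. No test was made on the sum because its members were chosen with their values known.

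The comparison of the groups asks which liver miRNAs differ after JTXK granule. Of the 6 members, 3 were higher in the J group by the thresholds of the study's methods with limma as the test, and 0 were lower. The 3 were mmu-miR-881-3p, mmu-miR-880-3p and mmu-miR-465c-3p. The study's methods name no test for this step, and of the members its upregulated list holds only mmu-miR-465c-3p. A miRNA had to differ by more than 0.3 on the log2 scale in either direction and to have p under 0.05 before adjustment, here by limma on log2(RPM + 1), among those averaging above 1 RPM in a group. All 6 members passed that filter in both groups. Over the 548 miRNAs tested, 29 (5.29%) passed the thresholds, 8 of them (1.46%) higher in the J group and 21 lower, so the share of members called was above the background. By edgeR on the recovered reads, 4 of the 6 were called higher (18 of the 548 in all, 3.28%), and by DESeq2 3 of the 6 (13 of the 548, 2.37%), where mmu-miR-743b-3p was called and mmu-miR-465c-3p was not. With median-of-ratios scaling the split over all miRNAs was 17 higher and 13 lower, and with quantile normalization 17 higher and 12 lower. Of the 548, 0 had an adjusted p under 0.05 by limma (Benjamini-Hochberg), where 29 had an unadjusted p under 0.05, and DESeq2 gave 2 with an adjusted p under 0.05, neither of them a member. All 6 members had a log2 fold change above 0 (median 0.92), against a median of -0.13 over all tested. The members were picked with results of these libraries known, which sets a limit on what their share of calls can show.

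In J group replicates 1 to 3, mmu-miR-881-3p had 30, 58 and 14 reads, against 7, 8 and 10 in the M group replicates in the same order. This corresponds to 6.95, 16.2 and 4.99 RPM against 2.67, 2.35 and 2.33 RPM, so all J group libraries lay above all M group libraries. The means were 9.38 ± 5.98 and 2.45 ± 0.190 RPM (SD, n = 3), a ratio of 3.83. Its log2 fold change of 1.44 (standard error, SE, 0.43, limma adjusted p = 0.64) was the highest of all 548 miRNAs. Without J group replicate 2 it was 1.0, which still passed the thresholds, and the ratio of means was 2.44. In J group replicate 3 the Wilson interval (2.97 to 8.38 RPM) overlapped that of M group replicate 1 (1.29 to 5.5 RPM).

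mmu-miR-880-3p, from the hairpin near that of miR-881, had 28, 42 and 14 reads in the J group replicates and 8, 11 and 15 in the M group replicates. In RPM this was 6.49, 11.7 and 4.99 against 3.05, 3.22 and 3.49, again with no overlap of the groups. The means were 7.73 ± 3.53 and 3.25 ± 0.224 RPM (SD, n = 3). The log2 fold change was 0.96 (SE 0.36, limma adjusted p = 0.71). This call was lost without any library other than J group replicate 3. The log2 fold change fell to 0.66 without J group replicate 2. In the other losses it stayed at 0.93 to 1.04, with p before adjustment at 0.055 to 0.070 by limma.

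mmu-miR-743b-3p had 32, 62 and 20 reads in the J group replicates and 14, 14 and 21 in the M group replicates. These are 7.42, 17.3 and 7.13 RPM against 5.33, 4.10 and 4.89 RPM, and the groups did not overlap. The means were 10.6 ± 5.79 and 4.77 ± 0.621 RPM (SD, n = 3). Its log2 fold change of 0.91 (SE 0.39, limma adjusted p = 0.71) did not pass, its p before adjustment being just above the threshold. It passed the thresholds by edgeR (log2 fold change 1.24, adjusted p = 0.57) and DESeq2 (1.26, adjusted p = 0.50) on the recovered reads, and in limma with median-of-ratios scaling or quantile normalization (both 1.0), with 0.1 RPM added in place of 1 (1.02), and without J group replicate 3 (1.11). Without J group replicate 2 it was 0.52 and did not pass.

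mmu-miR-465c-3p, listed by the study as upregulated on these same libraries, followed another order. It had 15, 8 and 13 reads in the J group replicates and 2, 6 and 6 in the M group replicates. This was 3.48, 2.23 and 4.63 RPM against 0.762, 1.76 and 1.40 RPM, so the groups did not overlap and J group replicate 2 was the lowest of the J group. The means were 3.45 ± 1.2 and 1.31 ± 0.505 RPM (SD, n = 3), a ratio of 2.64. The log2 fold change was 0.94 (SE 0.36, limma adjusted p = 0.71). The call was lost without J group replicate 1 (0.91), J group replicate 3 (0.75), M group replicate 1 (0.75) or M group replicate 3 (0.98). It was also lost by DESeq2 (1.47), with no filter, with the replicate block and with 10 RPM added in place of 1 (0.25). The intervals of J group replicate 2 (1.13 to 4.41 RPM) and M group replicate 2 (0.806 to 3.84 RPM) overlapped, so the gap between these libraries was not detectable at this depth.

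mmu-miR-465c-5p, which comes from 2 of the 5 hairpins that hold the 3p sequence, had 11, 26 and 3 reads in the J group replicates and 5, 6 and 10 in the M group replicates. In RPM this was 2.55, 7.26 and 1.07 against 1.90, 1.76 and 2.33. The groups overlapped, since J group replicate 3 was the lowest of the 6 libraries and J group replicate 2 the highest. The log2 fold change was 0.40 (SE 0.52, limma adjusted p = 0.81) and turned to -0.14 without J group replicate 2.

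mmu-miR-470-5p, a miRNA known for acting on the coding sequences of Nanog and Pou5f1 in embryonic stem cells, had 28, 54 and 8 reads in the J group replicates and 12, 20 and 13 in the M group replicates. The levels were 6.49, 15.1 and 2.85 RPM against 4.57, 5.86 and 3.03 RPM. J group replicate 3 was below every M group library, and J group replicates 1 and 2 were above them. Its log2 fold change was 0.53 (SE 0.54, limma adjusted p = 0.77) and did not pass. Without J group replicate 2 the J group mean was 4.67 RPM, close to the 4.49 ± 1.42 RPM (SD, n = 3) of the M group, and the log2 fold change was 0.0033. Without J group replicate 3 it was 1.03, which did not pass either.

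**Figure D2:**
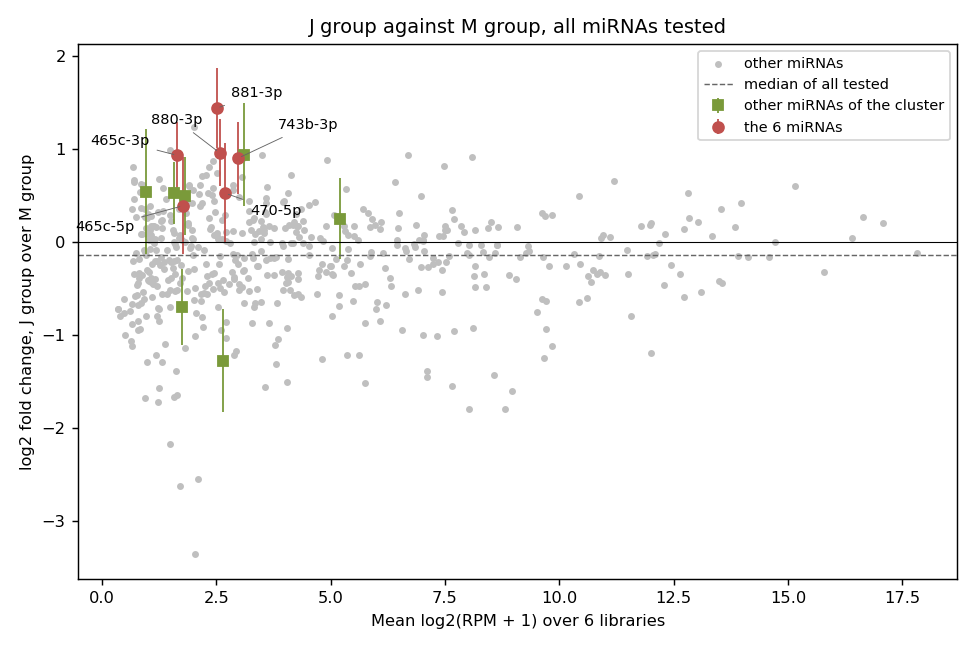
The log2 fold change of the J group over the M group (limma on log2(RPM + 1)) against the mean level for all 548 miRNAs tested, with standard errors as bars for the cluster. The 6 miRNAs lie between 0.40 and 1.44, above the median of all tested (-0.13), and mmu-miR-881-3p is the highest point.

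J group replicate 2 gave the highest value for 5 of the 6 members, and for 101 of the 548 miRNAs tested (18.4%). It also had the most miRNAs with a read, 767 against 705 to 729 in the other libraries, and the part of this in the results was not tested. It exceeded the next highest library by a ratio of 2.33 for mmu-miR-743b-3p, 2.33 for mmu-miR-881-3p, 2.32 for mmu-miR-470-5p, 1.81 for mmu-miR-880-3p and 2.85 for mmu-miR-465c-5p. For mmu-miR-743b-3p, mmu-miR-881-3p and mmu-miR-470-5p its Wilson interval lay above those of all other libraries, for example 12.5 to 20.9 RPM against 4.87 to 9.93 RPM in J group replicate 1 for mmu-miR-881-3p. For mmu-miR-880-3p its interval (8.67 to 15.8 RPM) overlapped that of J group replicate 1 (4.49 to 9.38 RPM), and for mmu-miR-465c-5p it did not overlap any other. For some members the M group libraries lay close together. The M group SD was 0.190 RPM for mmu-miR-881-3p and 0.224 RPM for mmu-miR-880-3p, against 5.98 and 3.53 RPM in the J group. For 4 of the 6 members every J group library was above every M group library. Over all 548 miRNAs the groups were separated in this way for 74 (13.5%), in 23 of them (4.2%) with the J group above. With 3 libraries against 3, an exact permutation test of a single miRNA cannot give a p below 0.1.

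The wider cluster was described from a list of its hairpins. Of 40 mature names of the list in RefSeq, 22 had an entry in the table, 16 of them besides the members, and 13 passed the filter. Of these 13, 7 were no members, and 0 of the 7 passed the thresholds by limma, edgeR or DESeq2, where by limma 29 of the 548 (5.29%) were called over all miRNAs. The most abundant was mmu-miR-741-3p, which is no member. It had 249, 170 and 63 reads in the J group replicates and 99, 152 and 91 in the M group replicates, and took 28.4% to 51.7% of the cluster's reads in a library. Its J and M libraries overlapped, with a log2 fold change of 0.26 (adjusted p = 0.85 by limma), and J group replicate 1 was its highest library. mmu-miR-871-3p, whose hairpin lies between those of miR-881 and miR-470, had 32, 79 and 22 reads in the J group replicates and 23, 22 and 10 in the M group replicates. J group replicate 2 was again the highest, and the log2 fold change was 0.94 (SE 0.55, limma adjusted p = 0.71), or 0.47 without that library.

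The seed partner of mmu-miR-743b-3p, mmu-miR-743a-3p, had 12, 12 and 5 reads in the J group replicates and 5, 4 and 6 in the M group replicates, a log2 fold change of 0.53 (adjusted p = 0.71 by limma). mmu-miR-465a-5p had 10, 22 and 6 reads against 6, 8 and 6, with the highest value in J group replicate 2 as for mmu-miR-465c-5p. mmu-miR-465b-5p, which differs from mmu-miR-465c-5p by 1 base, had 10, 0 and 1 reads in the J group replicates and 0 in each M group library. Taking 3 reads as the limit that a count of 0 allows, this is up to 0.698 to 1.14 RPM in the 4 libraries without a read.

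The filter kept a miRNA of the dense part through the J group only, so no direction was counted over those tested. mmu-miR-883a-3p, with 6, 16 and 0 reads in the J group replicates and 0, 5 and 3 in the M group replicates, passed by its J group mean (1.95 against 0.721 RPM). mmu-miR-878-3p, under the filter, had 1, 0 and 0 reads in the J group replicates and 1 in each M group library. Its other arm, mmu-miR-878-5p, had 2, 8 and 0 reads against 1 in each M group library. All cluster miRNAs under the filter except mmu-miR-878-3p had a higher mean in the J group, with at most 11 reads summed over that group. The log2 fold change of mmu-miR-741-3p was below 0 without J group replicate 1 or without M group replicate 3. Further along the chromosome, 1211 and 1212 kb from the lowest hairpin start of the dense part, lie Mir201 and Mir547. Their miRNAs had log2 fold changes below 0 under every alternative that tested them. mmu-miR-547-3p had 4, 26 and 9 reads in the J group replicates and 22, 42 and 28 in the M group replicates, a log2 fold change of -1.27 (adjusted p = 0.71 by limma) that passed the thresholds without J group replicate 2 (-1.78), with no filter and with the replicate block. Without J group replicate 1 it was -0.73 and did not pass. mmu-miR-201-5p had 3, 9 and 6 reads against 6, 11 and 20, with a log2 fold change of -0.69 (adjusted p = 0.71 by limma).

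**Figure D3:**
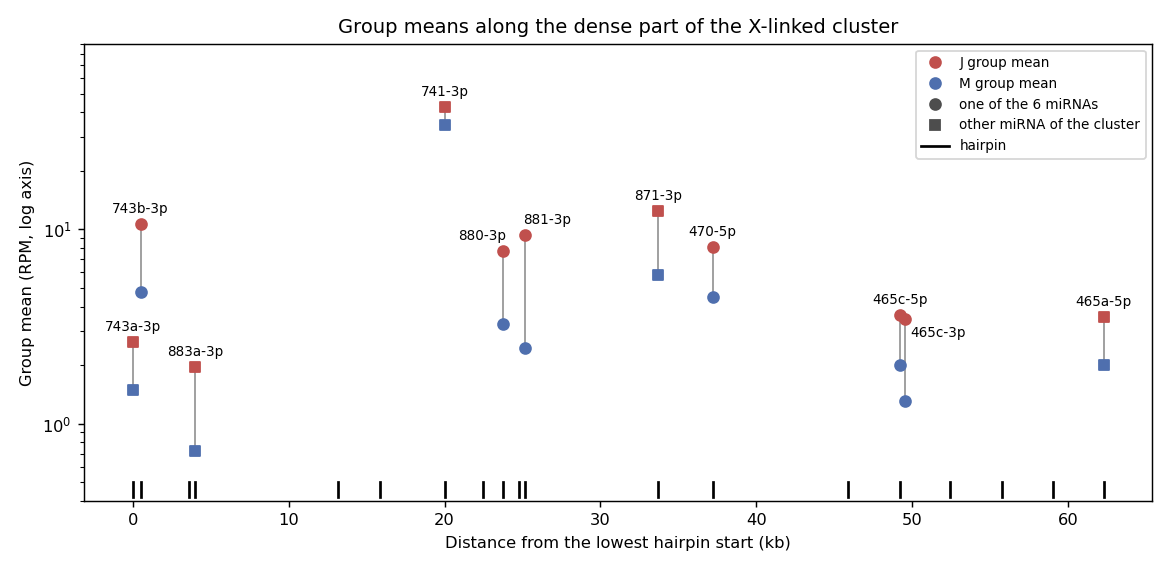
Group mean RPM (log axis) of the 11 tested miRNAs of the dense part, placed by the distance of their hairpin from the lowest hairpin start in kb, with ticks for all 19 hairpins. mmu-miR-741-3p is the most abundant, mmu-miR-883a-3p passed the filter through its J group mean alone (1.95 against 0.721 RPM), and mmu-miR-465c, which has 2 hairpins, is drawn at Mir465c-1.

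**Figure D4:**
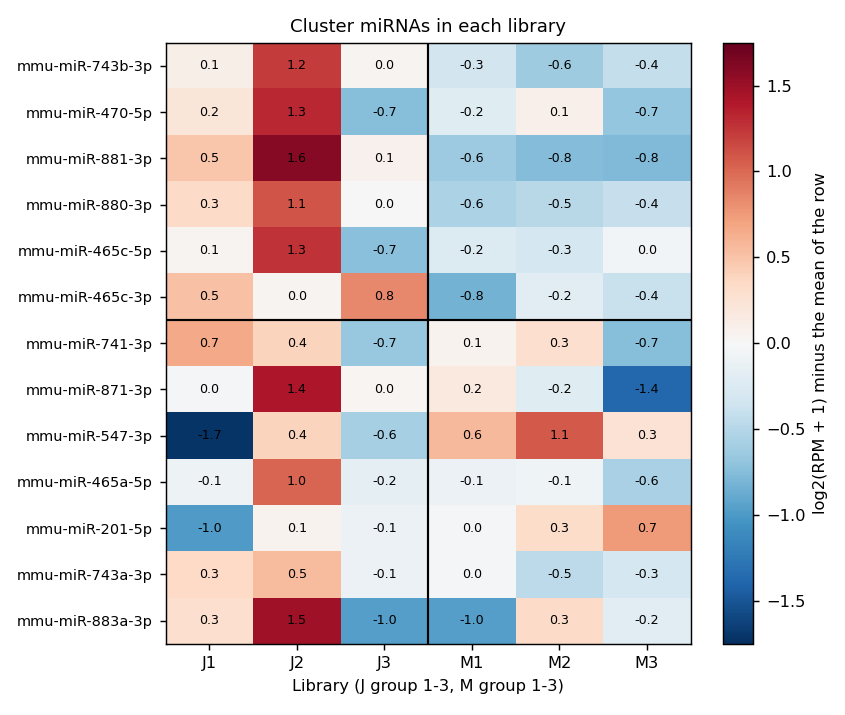
log2(RPM + 1) in each library minus the mean of that miRNA over the 6 libraries, for the 6 members above the line and the 7 other tested miRNAs of the cluster below it. J2 is the highest library for 5 of the 6 members, by up to 1.60 above the mean for mmu-miR-881-3p, while mmu-miR-547-3p is highest in M2.

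The hairpins differed in which arm was read. mmu-miR-743b-3p had 163 reads over the 6 libraries and mmu-miR-743b-5p had 3. mmu-miR-881-3p had 127 and mmu-miR-881-5p had 5. For miR-465 the 3p sequence that 5 hairpins share had 50 reads, while the 5p arms of these hairpins were read apart, with 61 reads of mmu-miR-465c-5p, 58 of mmu-miR-465a-5p and 11 of mmu-miR-465b-5p. The other arms of miR-880 and miR-470 had no entry of their own.

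Over the 6 libraries, the miRNAs whose level was most like the summed level of the members were a miRNA that the authors predicted and that has no miRBase name (Pearson r = 0.98, with 1 to 7 reads per library), mmu-miR-31-3p (0.94), mmu-miR-706 (0.94), mmu-miR-30a-5p (0.92) and mmu-miR-192-5p (0.92), on the log2(RPM + 1) scale. The next were mmu-miR-465a-5p (0.90) and mmu-miR-743a-3p (0.89) of the cluster itself. Of the other tested cluster miRNAs, mmu-miR-871-3p was at 0.82, mmu-miR-883a-3p at 0.76 and mmu-miR-741-3p at 0.48. The values were negative for mmu-miR-547-3p (-0.25) and mmu-miR-201-5p (-0.37). These values describe 6 libraries and share the total of each library. They also carry the group difference, because every J group sum lay above every M group sum. Among the first 5, mmu-miR-31-3p and mmu-miR-30a-5p were themselves called higher in the J group (log2 fold changes 0.73 and 0.61 by limma). The predicted miRNA had 1 read in each M group library, so it passed the filter through its J group mean alone. Without J group replicate 2, r was 0.91, 0.92, 0.65, 0.95 and 0.785 for the first 5 in the same order. For the cluster miRNAs it ran from 0.81 (mmu-miR-743a-3p) to -0.93 (mmu-miR-547-3p), with 0.44 for mmu-miR-465a-5p.

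miRNAs known from male germ cells but outside the cluster were also read. Of the list, 4 had an entry (mmu-miR-34b-3p, mmu-miR-34c-5p, mmu-miR-449a-5p and mmu-miR-449c-5p), with sums of 8.65 to 25.5 RPM (J group) and 11.7 to 36.2 RPM (M group). mmu-miR-34c-5p was at 24.6, 8.65 and 23.2 RPM in J group replicates 1 to 3, lowest in replicate 2, where most of the members were highest. mmu-miR-449a-5p had 30 reads in M group replicate 1, 1 in J group replicate 1 and 0 elsewhere, and mmu-miR-449c-5p had 18 in M group replicate 1 and 0 elsewhere. The miR-449 family is also known from ciliated epithelium. In that library the members summed to 18.3 RPM, between the values of the other M group libraries. The part of such cells in the results was not tested.

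Other X-linked clusters were more abundant. The 12 miRNAs of the miR-322, miR-503 and miR-450 cluster, all tested, summed to 1152 ± 103 and 1053 ± 183 RPM (J and M group, SD, n = 3), with a median log2 fold change of -0.03. Of the 10 miRNAs of the miR-532, miR-500 and miR-362 cluster, 8 were tested, with a median of -0.18. In each of these clusters 0 miRNAs were called, where 29 of the 548 (5.29%) were called over all miRNAs. The groups did not overlap for mmu-miR-322-5p and mmu-miR-362-5p, with the J group below, and for mmu-miR-532-3p, with the J group above. Over all 548 miRNAs the groups did not overlap for 74 (13.5%). Whether the members differ from these clusters was not tested.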

How the data were processed

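Liver small RNA of 3 J group and 3 M group mice was analysed. The authors filtered the raw data, matched the unique reads to Rfam and miRBase, and deposited RPM values scaled to each library's miRNA reads. Aligner and mismatch rule are not given in the sources used here. All non-zero values (100%) were whole multiples of the lowest one within 0.01 read, which gave the reads.

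The members, lists, rule for named miRNAs (members, entries of the cluster and marker lists, the 5 most correlated miRNAs) and alternatives were chosen with earlier results of these data known. The groups were compared by limma 3.58.1 in R 4.3.3 (lmFit, eBayes with trend, two-sided) on log2(RPM + 1), which understates changes of low miRNAs, with Benjamini-Hochberg adjustment over 548 miRNAs. edgeR 4.0.16 and DESeq2 1.42.0 used the recovered reads. The alternatives were an added 0.1 or 10 RPM, no filter, a filter at 10 RPM, median-of-ratios or quantile scaling, edgeR, DESeq2, a replicate term and each library left out. Counting intervals are 95% Wilson intervals (scipy 1.17.1). The fits were tested on simulated data. Calls by groups that do not overlap were added after seeing the data.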

Additional observations from a re-analysis of the deposited data

How the results depend on the processing

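Over all miRNAs, the count past the thresholds was 29, 45 by edgeR and 21 to 46 with each library left out. The count of members called was 3, and 1 to 3 with each library left out (1 without J group replicate 1, M group replicate 1 or M group replicate 3). It was 0 with a filter at 10 RPM, which left only mmu-miR-743b-3p of the members, through its J group mean. It was 4 where counted as groups that do not overlap, an alternative added after seeing the data. mmu-miR-881-3p passed under all 14 alternatives that tested it, mmu-miR-880-3p under 9 of 14, mmu-miR-465c-3p under 6 of 14 and mmu-miR-743b-3p under 6 of 15. mmu-miR-465c-5p reversed to -0.14 without J group replicate 2, and ranged up to 0.86 with other libraries left out. The log2 ratio of the summed members was 1.23, and 0.69 to 1.5 with each library left out, the lowest without J group replicate 2. The numbers of the replicates did not pair the mice: same-numbered libraries had deviations correlated at 0.045, 0.058 and -0.0059, and 1 of 6 libraries correlated best with its own number. With the replicate block, 27 miRNAs and 2 of the members were called. With 2 to 62 reads per member and library, depth limits each comparison.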
